A study of Mus musculus with 2 samples.

Results

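The 9 cytokine receptor genes that are best known from myeloid, lymphoid and stem cells were examined in poly(A)-selected RNA of G1E, an immortalised mouse cell line labelled as a Gata1- erythroid progenitor. GATA1 is the transcription factor that drives red cell maturation. The genes Csf2ra, Csf2rb, Csf2rb2, Il3ra, Csf1r, Csf3r, Flt3, Il7r and Il6st were taken by name. The rule did not use their levels, but earlier results of these data were known when the members and the other lists were fixed. All 9 of 9 were found among the 43346 annotated genes of both gene tables. There was 1 group of 2 libraries, labelled biological replicates 1 and 2, so that no comparison between conditions could be made here. Both replicates cite the same biosample, and nothing in the labels separates their cultures, so differences between replicates may be technical. The labels give the age as day 0 and the sex as male. They do not say how Gata1 was disrupted. Gata1 RNA itself was at 88.2 TPM in replicate 1, against 61.4 TPM in replicate 2 (a level per transcript length), and gene totals do not show which part of the gene the reads cover, so this value neither bears out nor contradicts the label.

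Cytokine receptors of blood cells mostly lack a kinase of their own. The receptors for GM-CSF, IL-3 and IL-5 each pair a ligand-specific alpha chain with a common beta chain, which carries a JAK kinase and passes the signal to STAT5. In mice, a further beta chain encoded by Csf2rb2 serves IL-3 alone. The IL-6 family signals through gp130, the product of Il6st, while CSF1R and FLT3 are receptor tyrosine kinases of macrophages and of early progenitors. Red cell progenitors in turn depend on KIT and the erythropoietin receptor.

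Replicate 1 held 31645051 expected counts and replicate 2 held 56983558, where an expected count is the estimated number of reads of a gene. Levels are in TPM, counts per effective length, with an equal total for both libraries. Protein-coding genes held 84.4% of all TPM in replicate 1 and 75.1% in replicate 2, which lowers TPM values in replicate 2. All 12 erythroid markers, among them Klf1, Tal1 and Epor, reached 1 TPM in each library, with summed levels of 1989 TPM in replicate 1 and 4501 TPM in replicate 2. Most of both sums came from the globin genes Hba-a1, at 496 and 1683 TPM, and Hba-a2, at 757 and 2019 TPM. Klf1 was at 184 and 141 TPM and Tal1 at 138 and 134 TPM. Of the 12 granulocyte markers, Csf3r included, only 1 reached 1 TPM in both libraries, or 8.33% beside 42.5% of protein-coding genes. Elane, Ctsg and Camp had no count in either library, while Mpo had 19 and 22 counts and Prtn3 had 5 and 15. The list summed to 7.05 TPM in replicate 1 and 15.2 TPM in replicate 2, nearly all from Cebpe at 6.01 and 14.3 TPM.

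The shared beta chain of the GM-CSF, IL-3 and IL-5 receptors was the most abundant of the 9 receptor RNAs. Its TPM was 0.632 of that of the erythropoietin receptor in replicate 1 and 0.906 in replicate 2. The alpha chains for IL-3 and for GM-CSF, which partner the shared beta chain, were present at lower levels. The gp130 gene was just above 1 TPM. The genes of the M-CSF receptor, the G-CSF receptor and the IL-7 receptor alpha chain had at most 9 counts in a library. Flt3 was under 1 TPM in both libraries. The call of expression asked for at least 1 TPM in each library, and 5 of 9 members met this, a share of 55.6% beside 42.5% of the 21474 protein-coding genes and 24.2% of all annotated genes. The median level over the members was 1.52 TPM, against 0.365 TPM over protein-coding genes.

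**Figure D1:**
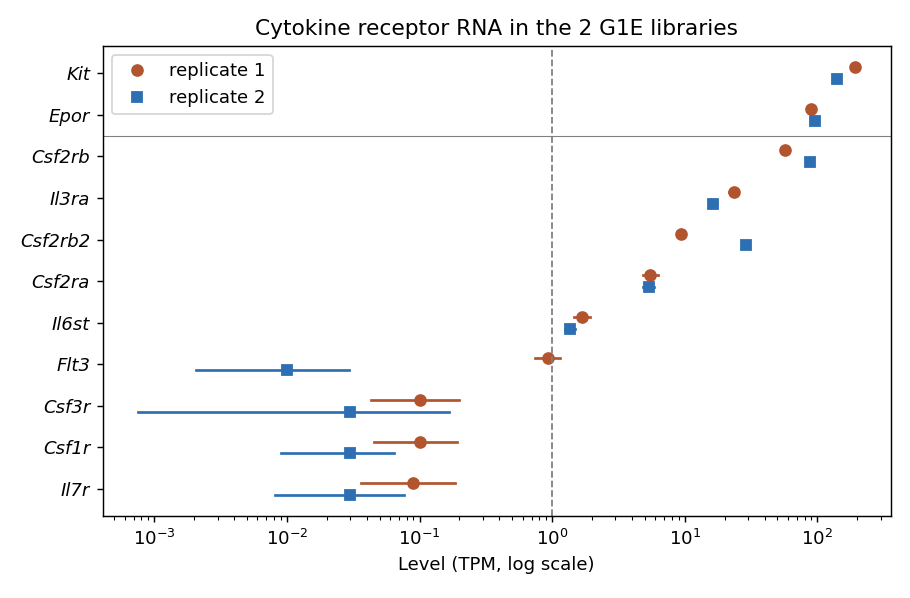
Level of each receptor gene in TPM (log axis) in replicate 1 (circles) and replicate 2 (squares), with Kit and Epor above the line for scale. Bars are 95% exact Poisson intervals of the counts, drawn for the 9 receptor genes only, and the dashed line marks 1 TPM. Csf2rb, Il3ra, Csf2rb2, Csf2ra and Il6st lie right of the line in both libraries, and Flt3, Csf3r, Csf1r and Il7r lie left of it. The bar of Flt3 in replicate 1 crosses the line.

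Csf2rb (ENSMUSG00000071713.4) and Csf2rb2 (ENSMUSG00000071714.5) encode the beta chains and are near copies, so their sequences bear on how far their reads could be divided. On chromosome 15 of GRCm38 (mm10), Csf2rb2 lies on the minus strand from 78282507 to 78305721 and Csf2rb on the plus strand from 78325752 to 78353847, pointing away from each other with 20030 bases between them. The coding sequences of Csf2rb-201 (2691 bases) and Csf2rb2-201 (2637 bases) aligned over 2631 positions, of which 2505, or 95.2%, were identical and 126 differed. The longest identical stretch ran for 242 bases, and 15 stretches of 55 or more bases held 1422 bases in all. The window of 100 coding bases with the most differences, without gaps, held 17 of them. It is shown because reads from it can be assigned to 1 gene. It covers coding bases 314 to 413 of Csf2rb and 317 to 416 of Csf2rb2, across an exon junction in both (chr15:78338903-78340456 on the plus strand and chr15:78292853-78294428 on the minus strand, introns included), and capitals mark the bases that differ between the genes.
Csf2rb: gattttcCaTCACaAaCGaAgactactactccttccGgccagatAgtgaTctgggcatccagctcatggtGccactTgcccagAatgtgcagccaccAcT
Csf2rb2: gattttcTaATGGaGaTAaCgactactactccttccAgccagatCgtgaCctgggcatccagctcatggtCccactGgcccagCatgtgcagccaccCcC

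The longest identical stretch is shown with 10 bases on each side because no read that falls inside it can tell the genes apart. It lies at chr15:78348567-78348828 on the plus strand in Csf2rb, coding bases 2073 to 2334, and capitals mark the flanking bases that differ in Csf2rb2.
Csf2rb: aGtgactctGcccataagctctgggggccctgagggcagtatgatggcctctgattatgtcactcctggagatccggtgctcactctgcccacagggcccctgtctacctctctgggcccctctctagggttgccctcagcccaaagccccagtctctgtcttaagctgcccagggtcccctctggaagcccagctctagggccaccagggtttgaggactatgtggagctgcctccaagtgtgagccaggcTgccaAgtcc

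**Figure D2:**
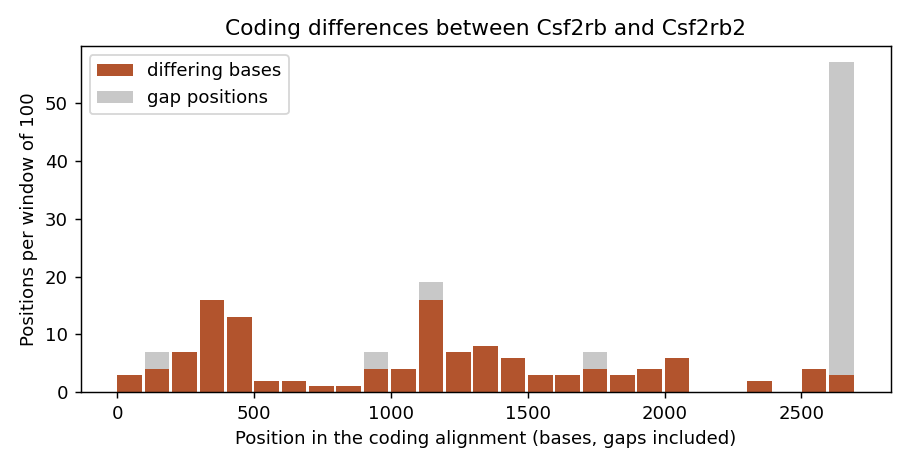
Bases that differ (brown) and gap positions (grey) between the coding sequences of Csf2rb and Csf2rb2, counted in consecutive windows of 100 alignment positions. Windows hold up to 16 differing bases, the windows from 2101 to 2300 and from 2401 to 2500 hold 0, and the last window holds 54 gap positions.

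The read lengths implied by the effective lengths were 36 bases in replicate 1 and 55 bases in replicate 2. Of the 36-base words in the transcripts of Csf2rb, 26.5% also occur in another gene, and of the 55-base words 16.9%. For Csf2rb2 the shares were 27.0% and 17.3%. Most of these words are shared between this pair (1211 of 36 bases and 797 of 55 bases), so most of each transcript remains distinct at either read length. Each gene also shares 62 exonic bases with a microRNA gene on its own strand, Mir7676-2 for Csf2rb and Mir7676-1 for Csf2rb2.

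Csf2rb stood at 56.6 TPM in replicate 1, against 87.7 TPM in replicate 2 (72.1 ± 22.0 TPM, SD, n = 2), on 6247 and 18721 counts. This placed it above 88.7% and 93.3% of protein-coding genes. Csf2rb2 stood at 9.32 TPM in replicate 1, against 28.8 TPM in replicate 2 (19.1 ± 13.8 TPM, SD, n = 2), on 997 and 5949 counts. Csf2rb was the higher of the pair in both libraries, and both genes were higher in replicate 2. The sum of both, which depends little on how shared reads were divided between genes of like length, was 65.9 TPM in replicate 1 and 116 TPM in replicate 2.

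Ratios between genes were taken within each library as differences of log2(TPM + 1). They were set beside 1.23, the 95% bound for a mean over both libraries derived from the SD of 0.63 between libraries pooled over 10469 expressed genes. A single library has a bound of 1.74. This SD is of the same gene between libraries. The bound therefore leaves out any error that differs between genes but is alike in both libraries. Genes under 1 TPM, such as Flt3, Csf1r, Csf3r and Il7r, are not among those it was derived from. Csf2rb exceeded Csf2rb2 by 2.03 ± 0.64 on the log2 scale (SD, n = 2), beyond the bound for the mean. The ratio of their TPM was 6.07 in replicate 1 and 3.05 in replicate 2, and the log2 difference in replicate 2 alone, 1.57, was inside the bound for 1 library. Read length differs between the libraries along with this ratio, and its part in the ratio was not tested. No pair was tested, because the smallest two-sided p that exact sign-flip permutation of 2 libraries allows is 0.5.

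Il3ra (ENSMUSG00000068758.7) encodes the alpha chain that binds IL-3 and lies on chromosome 14 from 14346275 to 14356011, plus strand. It had a level of 23.3 TPM in replicate 1, against 16.3 TPM in replicate 2 (19.8 ± 4.95 TPM, SD, n = 2), on 740 and 991 counts. An antisense gene, Gm48860, shares 46 exonic bases with it. Csf2ra (ENSMUSG00000059326.6) encodes the alpha chain that binds GM-CSF and lies on chromosome 19 from 61223957 to 61228429, minus strand. Its level was 5.50 TPM in replicate 1 and 5.37 TPM in replicate 2 (5.44 ± 0.0919 TPM, SD, n = 2), on 233 and 437 counts. The libraries overlapped within counting error for Csf2ra, with 95% Poisson intervals of 4.82 to 6.25 TPM in replicate 1 and 4.88 to 5.90 TPM in replicate 2. Such intervals cover counting error only, since the reads carry no molecular identifiers. For Il3ra they did not overlap, at 21.7 to 25.1 TPM in replicate 1 and 15.3 to 17.4 TPM in replicate 2.

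Both alpha chains were below the shared beta chain in both libraries. The difference of log2(TPM + 1) was -3.47 ± 0.46 for Csf2ra over Csf2rb and -1.80 ± 0.79 for Il3ra over Csf2rb (SD, n = 2 for both), both beyond 1.23. The second was -1.24 in replicate 1 alone, inside the bound for a single library. Csf2ra over Il3ra was -1.67 ± 0.33 (SD, n = 2), also beyond 1.23, and -1.44 in replicate 2 alone, inside the bound for a single library. The third alpha chain of this family, Il5ra for IL-5, was at 0.82 TPM in replicate 1, against 0.64 TPM in replicate 2, on 32 and 48 counts, and so under 1 TPM. RNA levels give no count of receptor chains at the cell surface.

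Against the receptors of the red cell lineage, Csf2rb differed from Epor by -0.40 ± 0.36 in log2(TPM + 1) (SD, n = 2), inside the bound. Epor, the erythropoietin receptor gene, was at 89.5 TPM in replicate 1, against 96.7 TPM in replicate 2. Kit, the receptor gene for stem cell factor, stood at 191 TPM in replicate 1, against 140 TPM in replicate 2, above all 9 members in both.

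Promoter windows of 250 bases before to 50 after the RefSeq start (GRCm38.p6) matched 7 of the 9 members. They were searched on both strands for AGGAAG, a core bound by ETS factors such as PU.1, and for the GATA words AGATAA with its variant AGATAG, then TGATAA with its variant TGATAG. The word AGGAAG was found in the windows of 5 of these 7 members and a GATA word in 2 of 7, against 35.4% and 29.8% of all 32851 windows. The windows of the expressed chain genes Csf2ra and Csf2rb2 are shown because they hold matches near the start, with every match in capitals.
Csf2ra: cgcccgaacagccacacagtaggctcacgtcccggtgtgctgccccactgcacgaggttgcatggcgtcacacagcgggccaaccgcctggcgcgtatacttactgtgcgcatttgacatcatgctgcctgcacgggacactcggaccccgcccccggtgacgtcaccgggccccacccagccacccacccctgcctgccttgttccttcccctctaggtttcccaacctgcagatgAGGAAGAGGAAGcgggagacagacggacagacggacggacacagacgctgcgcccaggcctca
Csf2rb2: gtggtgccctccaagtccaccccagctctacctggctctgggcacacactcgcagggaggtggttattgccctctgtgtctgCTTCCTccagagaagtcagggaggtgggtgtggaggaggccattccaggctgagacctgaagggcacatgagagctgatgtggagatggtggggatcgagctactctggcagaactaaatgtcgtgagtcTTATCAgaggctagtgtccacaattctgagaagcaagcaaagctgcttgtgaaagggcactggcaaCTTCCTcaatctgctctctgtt

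The Csf2ra window, chr19:61228369-61228668 on the minus strand, holds 2 AGGAAG words side by side, beginning 13 and 7 bases before the start, and no GATA word. The Csf2rb2 window, chr15:78305672-78305971 on the minus strand, holds 2 AGGAAG words as their reverse complement and 1 GATA word, TGATAA as its reverse complement, beginning 38 bases before the start. The windows of the expressed gene Il6st and of Flt3, which was under 1 TPM, held neither kind of word. Csf3r, which had almost no RNA, held 4 AGGAAG words, and Il7r held 1. The Il3ra window held 1 AGGAAG word and 1 GATA word. A matching word is not evidence of binding.

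Il6st (ENSMUSG00000021756.8), on chromosome 13 from 112464070 to 112510086, encodes gp130, the signalling chain shared by the receptors for IL-6, IL-11, LIF and oncostatin M. It was at 1.68 TPM in replicate 1, against 1.36 TPM in replicate 2 (1.52 ± 0.226 TPM, SD, n = 2), on 190 and 463 counts. The libraries lay close together and just above the threshold, and at a threshold of 2 TPM Il6st was not called. Over Epor it was at -5.22 ± 0.21 in log2(TPM + 1) (SD, n = 2), beyond the bound.

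Its partner chains were for the most part lower still. Il6ra, for IL-6, was at 0.72 TPM in replicate 1, against 0.01 TPM in replicate 2, and Lifr, for LIF, at 0.19 and 0.01 TPM. Il11ra1, which binds IL-11, was the exception at 3.55 TPM in replicate 1, against 6.22 TPM in replicate 2. Il6st over Il6ra was 0.93 ± 0.41 and Il6st over Lifr 1.20 ± 0.04 in log2(TPM + 1) (SD, n = 2 for both), inside the bound. With a pseudocount of 0.1 TPM these differences were 2.42 and 3.17 and passed the bound recomputed for it.

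The transcript tables divided Il6st differently in each library. Il6st-203, the transcript of 8678 bases that spans the whole locus, took 36% of the level in replicate 1 and 80.1% in replicate 2. Il6st-206, of 3004 bases and ending at 112483616 within the first part of the locus, took 58.4% in replicate 1 and 9.80% in replicate 2, on 67.9 and 17.9 counts. By share of TPM the leading transcript differed between the libraries. By expected counts Il6st-203 led in both, with 122 counts in replicate 1 and 427 in replicate 2. The division is an estimate on few counts, and the part of read length in it was not tested. The files list 10 Il6st transcripts, and 6 of them have no count in either library.

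Flt3 (ENSMUSG00000042817.13) encodes the FLT3 ligand receptor of multipotent and dendritic progenitors and lies on chromosome 5 from 147330741 to 147400489. It stood at 0.93 TPM in replicate 1, against 0.01 TPM in replicate 2, on 89 and 3 counts. The libraries disagreed by far more than counting error, with exact Poisson intervals of 71.5 to 110 counts and 0.619 to 8.77 counts. In replicate 1 most of these counts, 74.5, were assigned to Flt3-202, which is annotated as a processed transcript without a coding sequence. The annotated protein-coding transcript Flt3-201 had no count in either library. The remaining counts went to a transcript of 5241 bases that release M21 of the annotation does not hold.

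Other genes with few or no counts in replicate 2 also had reads in replicate 1. Among the 10259 protein-coding genes with 5 or fewer counts in replicate 2, the median level in replicate 1 was 0.06 TPM, the 95th percentile was 0.70 TPM, and 312 genes, or 3.04%, were at or above the level of Flt3. Of the listed genes, Ebf1 had 125 counts in replicate 1 against 1 in replicate 2, Il6ra 56 against 1 and Hoxa9 48 against 2, examples chosen after their values were seen. What sets this level in replicate 1, and its part in the Flt3 counts, was not tested. Flt3 over Kit was -6.88 ± 0.34 in log2(TPM + 1) (SD, n = 2), beyond the bound. The pseudocount of 1 TPM is above both Flt3 levels, so it holds down the size and the SD of this difference. With 0.1 TPM the difference was -8.93. The TPM of Kit was 206 times that of Flt3 in replicate 1 and 13994 times in replicate 2.

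**Figure D3:**
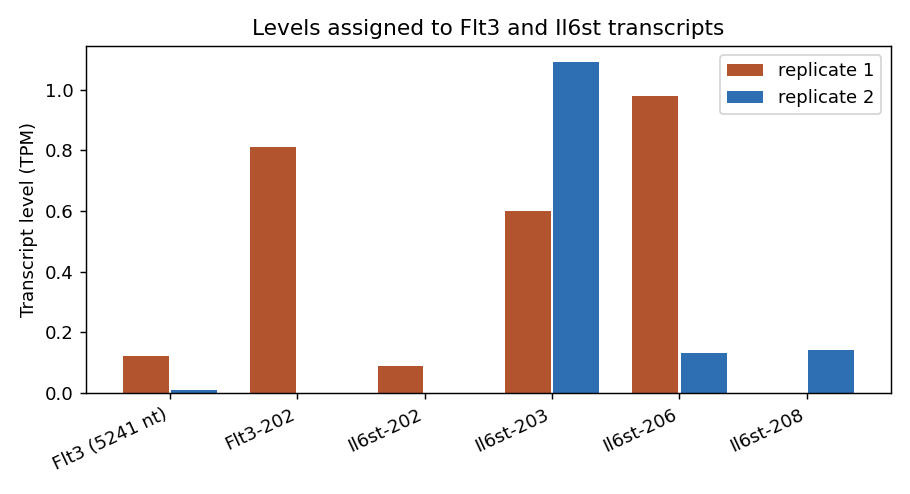
Level in TPM assigned to each transcript of Flt3 and Il6st with a level above 0 in either library (bars from 0, replicate 1 left and replicate 2 right in each pair). Flt3-202 has 0.81 TPM in replicate 1 and 0 in replicate 2, and Il6st is led in TPM by Il6st-206 in replicate 1 and by Il6st-203 in replicate 2.

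Csf1r (ENSMUSG00000024621.11) encodes the M-CSF receptor of monocytes and macrophages and lies on chromosome 18 from 61100598 to 61132149. It was at 0.10 TPM in replicate 1, against 0.03 TPM in replicate 2, on 9 and 5.41 counts. All counts of replicate 1 were assigned to Csf1r-201 and all counts of replicate 2 to Csf1r-202. The gene Hmgxb3, on the opposite strand, shares 873 exonic bases with Csf1r and was at 28.1 and 22.9 TPM. The sources do not state whether strand was used in counting, so it is not known whether reads from those shared bases were told apart between the genes. Of the 36-base words of Csf1r, 838 of 4850, or 17.3%, also occur in Hmgxb3. Csf1r over Kit was -7.27 ± 0.25 in log2(TPM + 1) (SD, n = 2), beyond the bound. The size of this difference is held down by the pseudocount, and with 0.1 TPM it was -9.99.

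Csf3r (ENSMUSG00000028859.10) encodes the G-CSF receptor of neutrophils and lies on chromosome 4 from 126024550 to 126044440. It was at 0.10 TPM in replicate 1, against 0.03 TPM in replicate 2, on 8 and 1 counts. Of its 36-base words, 19.2% occur in other genes. Il7r (ENSMUSG00000003882.4) encodes the IL-7 receptor alpha chain of lymphoid progenitors and lies on chromosome 15 from 9505788 to 9530176. It was at 0.09 TPM in replicate 1, against 0.03 TPM in replicate 2, on 7 and 4 counts. For Csf1r, Csf3r and Il7r a level of 3 counts corresponds to 0.0333 to 0.0386 TPM in replicate 1 and 0.0166 to 0.0900 TPM in replicate 2, so these genes are near the limit of what the depth can show. Csf3r over Epor was -6.47 ± 0.15 in log2(TPM + 1) (SD, n = 2), beyond the bound, and -9.17 with a pseudocount of 0.1 TPM. Il2rg, the common gamma chain that pairs with the IL-7 receptor, was at 4.97 TPM in replicate 1, against 2.21 TPM in replicate 2. Il7r over Il2rg was -2.05 ± 0.58 (SD, n = 2), beyond the bound, but -1.64 in replicate 2 alone. With a pseudocount of 0.1 TPM it was -4.44.

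In the order of mean levels, Csf2rb was followed by Il3ra, Csf2rb2, Csf2ra, Il6st, Flt3, Csf1r, Csf3r and Il7r. The order came from these same levels, so the bound describes the gaps between neighbours and does not test them. Neighbours were called apart where the sign was the same in both libraries and the mean difference of log2(TPM + 1) passed 1.23, and 3 of 8 neighbouring pairs were. These were Csf2rb over Il3ra at 1.80 ± 0.79, Csf2rb2 over Csf2ra at 1.45 ± 1.10 and Csf2ra over Il6st at 1.36 ± 0.11 (SD, n = 2 for all). Il3ra and Csf2rb2 changed places between the libraries, at 1.24 in replicate 1 and -0.78 in replicate 2. Against the bound of 1.74 for 1 library, Csf2rb over Il3ra in replicate 1 (1.24), Csf2rb2 over Csf2ra in replicate 1 (0.67, against 2.22 in replicate 2) and Csf2ra over Il6st in both (1.28 and 1.43) were inside it. From Il6st downwards no neighbours were apart with a pseudocount of 1 TPM. With 0.1 TPM, Il6st over Flt3 was apart as well, at 2.26 ± 2.08 (SD, n = 2; 0.79 in replicate 1 and 3.73 in replicate 2) beside a bound of 1.34, which made 4 of 8. Of 13 listed pairs of receptor genes compared in all, 9 passed the bound. Among them Flt3 and Csf1r over Kit, and Csf3r and Il6st over Epor, set a low gene against a high one. No share over all gene pairs was computed, so this count describes the listed pairs only.

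The libraries were also compared as counts scaled by trimmed mean of M-values (TMM) library sizes, with 0.5 added, for the 6 members with at least 50 counts in total. Of these, 1 was at least 2-fold higher in replicate 1, beside 13.2% of the 12414 genes with as many counts. Another was at least 2-fold higher in replicate 2, beside 16.4%. Over both directions 2 of 6 members were apart, beside 29.6% of genes, so a 2-fold gap is common between these libraries. The shares higher in replicate 1 and in replicate 2 were 10.2% and 22.1% with DESeq2 size factors, and 10.2% and 22.4% with TMM over all genes. The log2 ratio, replicate 1 over replicate 2, was 5.51 for Flt3 and -1.67 for Csf2rb2. For Flt3 the ratio without the added 0.5 was 55.6, with an exact binomial 95% interval of 18.4 to 275 that covers counting error only. Csf2rb at -0.68, Il6st at -0.38, Csf2ra at 0.00 and Il3ra at 0.48 lay within 2-fold. DESeq2 size factors gave a median log2 ratio over the 12414 genes of -0.27, against -0.02 with TMM. The Csf2rb ratio was then -0.92 and that of Csf2ra -0.25. The Il6st ratio changed sign with the scale, at -0.62 with DESeq2 size factors and 0.18 on the log2(TPM + 1) scale, so Il6st has no direction between the libraries. With 1 library on each side, this ratio has no test.

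**Figure D4:**
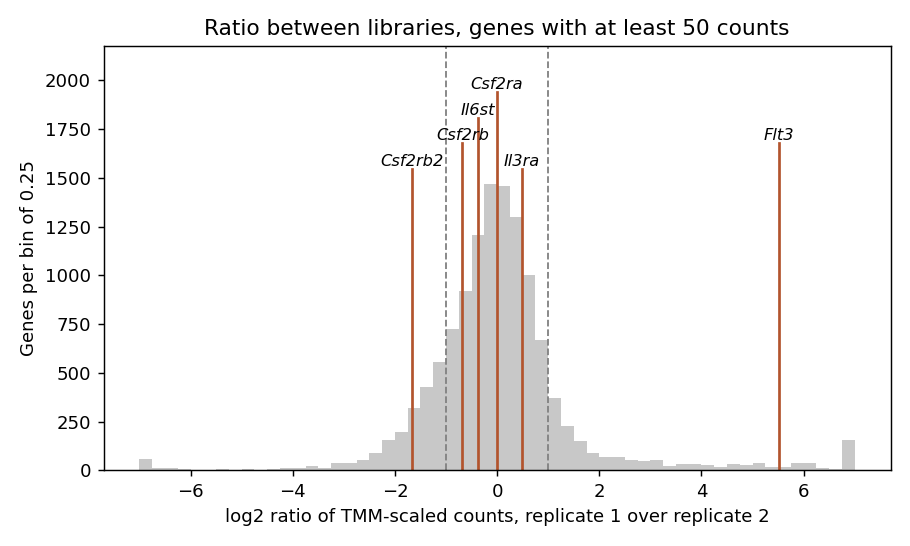
Histogram of the log2 ratio of TMM-scaled counts, replicate 1 over replicate 2, over the 12414 genes with at least 50 counts (bins of 0.25, ratios beyond the axis collected in the end bins). Brown lines mark the 6 members with enough counts, and dashed lines mark 2-fold. Csf2rb2 at -1.67 and Flt3 at 5.51 lie outside the dashed lines.

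The ligand genes of these receptors were mostly under 1 TPM. Of 16 measured ligand genes 2 were called expressed, namely Osm, oncostatin M, at 14.7 and 5.42 TPM and Cntf at 1.98 and 1.75 TPM. Il3 and Il6 had no count in either library, and Csf2, the gene of GM-CSF, had 3 counts in replicate 1 and 0 in replicate 2. Csf1, for the M-CSF receptor, had 40 counts in replicate 1 and 0 in replicate 2, and Csf3 had 1 in each. Of the 10 partner receptor chains 3 were expressed, led by Crlf2, the TSLP receptor chain that pairs with IL7R, at 10.8 and 12.7 TPM. (Il3, Il6, Csf2 and Csf3 were picked with their values in view.)

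The signalling genes that act below these receptors were expressed almost throughout. All 4 JAK kinases were called expressed. Jak2, the kinase used by the common beta chain, was the lowest of them on average, at 6.64 TPM in replicate 1, against 19.5 TPM in replicate 2, and Jak1 the highest at 44.4 and 44.3 TPM. In replicate 2 alone Tyk2 was below Jak2, at 13.9 TPM, against 21.1 TPM in replicate 1. Of 7 STAT factors 6 were expressed, led by Stat5a at 188 and 145 TPM and Stat3 at 140 and 82.5 TPM, while Stat4 was under 1 TPM. Of 12 adaptors and kinases 11 were expressed, with Grb2 at 171 and 122 TPM, and Syk under 1 TPM at 0.04 TPM in each. All 15 receptor inhibitors were expressed, led by Inpp5d, the phosphatase SHIP1, at 226 and 118 TPM, Ptpn6, the phosphatase SHP-1, at 154 and 128 TPM, and Cish, a STAT5-induced inhibitor, at 175 and 102 TPM. Apart from the ligands and partner chains, each of these lists lay well above the 42.5% of protein-coding genes that were expressed, which is a description of these lists and not a test.

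**Figure D5:**
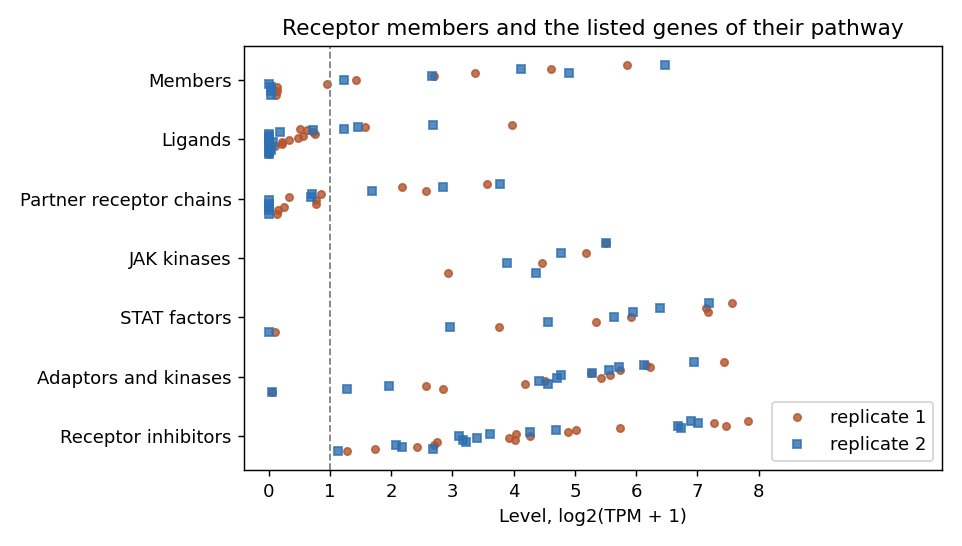
Level as log2(TPM + 1) of each receptor member and of each listed ligand, partner chain, JAK kinase, STAT factor, adaptor and inhibitor, in replicate 1 (circles) and replicate 2 (squares), each row sorted by mean. The dashed line marks 1 TPM. Ligands and partner chains gather left of it and all JAK kinases and inhibitors lie right of it.

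Of 14 transcription factors known to control these receptor genes in blood cells, 7 were called expressed. This share was only a little above the 42.5% of protein-coding genes. The expressed factors were led by Gata2 at 626 and 326 TPM and Myb at 289 and 117 TPM. Ikzf1 followed at 211 and 99.3 TPM and Spi1, which encodes PU.1, at 106 and 47.1 TPM. Cebpa, a factor needed for the myeloid G-CSF receptor programme, had no count in either library, Irf8 was at 0.35 and 0.01 TPM, and Pax5, the B cell factor, at 0.30 TPM and no count. (Cebpa was picked with its value in view.)

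Markers of the cell types in which the low members are best known were mostly low as well. Of 12 monocyte and macrophage markers 2 were expressed, Cd68 at 11.8 and 5.76 TPM and Lyz2 at 3.20 and 15.7 TPM, and the list, Csf1r included, summed to 18.0 and 24.0 TPM. Of 16 lymphoid markers, Il7r included, only Lck was, at 2.17 and 2.48 TPM, and Dntt had no count. None of the 7 dendritic cell markers or the 10 markers of stem and multipotent progenitors reached 1 TPM in both libraries. The dendritic list, Flt3 included, summed to 3.22 and 0.57 TPM, the stem cell list, Flt3 included too, to 7.0 and 1.13 TPM, and the lymphoid list to 7.38 and 3.26 TPM. Of 8 megakaryocyte markers 4 were expressed, with a sum of 53.8 and 58.2 TPM. This share was a little above the 42.5% of protein-coding genes, and that of the mast cell list, 33.3%, was below it. Neither count sets its list clearly apart from protein-coding genes. The shares of the monocyte and macrophage list, 16.7%, and of the lymphoid list, 6.25%, were further below. In the mast cell list, 3 of 9 were expressed, among them Il1rl1, the IL-33 receptor gene, at 17.8 and 40.6 TPM and Cpa3 at 4.66 and 15.3 TPM, while Fcer1a had 1 count in replicate 1 and Mcpt8 none, and the list summed to 26.4 and 59.7 TPM. Mast cells also use the IL-3 receptor, and the part of such cells in the levels of Csf2rb and Il3ra was not tested. In bulk RNA, fewer cells of a type and less RNA per cell cannot be told apart.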

How the data were processed

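Single-end poly(A) RNA-seq covered 2 libraries of 1 group, the mouse line G1E. Expected counts, TPM and FPKM per gene and transcript were deposited by the authors, from alignments to the transcriptome with assembly mm10 and annotation M4, per the file headers and the notes deposited with the files. For the aligner, the quantifier and the use of strand, the sources used here give nothing. The percent column and the signal columns (posterior mean of TPM with its interval) were also deposited. Depth was 31645051 and 56983558 expected counts, and entries that name no gene held 0.0363% and 0.00942% of them and were left out. Symbols and positions came from GENCODE M21 of the same assembly, which matched 42462 of 43346 gene identifiers. Symbol Flt3l found no match and was not analysed here, and 1 listed gene is not reported here.

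Counts were rounded, and TMM factors (0.982 and 1.02) were computed over 12457 genes passing the edgeR filter. DESeq2 gave alternative size factors. Ratios used a pseudocount of 1 TPM. Members were chosen by name, and members and lists were fixed with earlier results of these data known. All members are named, with up to 4 of the highest and 3 of the genes under 1 TPM of each other list. A step was tested on simulated counts. Tools were edgeR 4.0.16, DESeq2 1.42.0, R 4.3.3, scipy 1.17.1, numpy 2.4.6, Biopython 1.88, pandas 2.3.3 and Python 3.11.15.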

Additional observations from a re-analysis of the deposited data

How the results depend on the processing

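The count of expressed members was 5 of 9 at a threshold of 0.5 TPM, with TPM rescaled over protein-coding genes, with the posterior mean, with FPKM, with at least 10 counts in each library and in either library alone. It was 4 at 2 TPM, where Il6st was lost. The count of members at least 2-fold apart was 2 with TMM, with DESeq2 size factors, with rescaled TPM and with TMM over all genes, an alternative chosen after seeing the data. It was 5 without a filter on counts, which admits Csf1r, Csf3r and Il7r on few reads, and 1 on the log2(TPM + 1) scale, where the Flt3 ratio was 0.93 because the pseudocount shrinks ratios of low genes. Of the 13 listed pairs of receptor genes, 9 passed the bound, 11 did with a pseudocount of 0.1 TPM, and 6 to 8 did in 1 library alone against its wider bound. Of the 4 members with several transcripts, 0 had the same leading transcript in both libraries by share of TPM, and 1, Il6st, did by share of expected counts. This comparison needs both libraries and was not run with 1 left out. Over all pathway lists 51 genes were expressed, and 48 to 54 under the alternatives. No value past a threshold changed sign. Among values within 2-fold, the Il6st ratio between libraries was -0.38 with TMM, -0.62 with DESeq2 size factors and -0.63 with TMM over all genes, but 0.18 on the log2(TPM + 1) scale and 0.09 with rescaled TPM, and that of Csf2ra ran from -0.26 to 0.03. Neighbours apart in the order of levels numbered 3, also with a robust SD, and 4 with a pseudocount of 0.1 TPM, where Il6st over Flt3 was added. No paired analysis was possible because there is 1 group. Depth limits Csf1r, Csf3r and Il7r, which have at most 9 counts in a library.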
